A study of Homo sapiens with 4 samples.

Results

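The genes described here make, cut, bind or sense hyaluronan in HCT116 cells, which are a long-established line from a human colorectal carcinoma. They are VCAN, CD44, CEMIP, CEMIP2, HAS2, HAS3, HMMR, HYAL1 and HYAL2. All probe sets annotated to exactly 1 of these 9 symbols were taken, which gave 28 probe sets of 54675, belonging to 8 genes. HYAL1 was not analysed here. The genes were gathered by function and also chosen by measured values, since the intensities of VCAN, CEMIP and HMMR were already known to differ between these arrays. Their values are therefore a description, with no test attached.

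Messenger RNA was measured on 4 one-colour Affymetrix arrays, 1 for each kind of cell. The arrays were of HCT116 cells carrying shRNA #1 against KSR1 (hairpin #1), HCT116 cells carrying shRNA #2 against KSR1 (hairpin #2), HCT116 cells carrying a non-targeting shRNA vector (shCTRL), and untransfected HCT116 cells. KSR1 is a scaffold protein that brings the RAF, MEK and ERK kinases together. Per the labels, vectors were introduced by lipofection and clones were selected with puromycin, and all cells were grown in DMEM with fetal bovine serum. The labels do not say whether an array holds 1 clone or several pooled clones, and vector, hairpin, selection, clone, culture and array cannot be told apart in any difference between 2 arrays.

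Hyaluronan is a long unbranched sugar polymer that synthases of the HAS family spin out through the cell membrane. HYAL2 and the proteins CEMIP and CEMIP2 take part in its breakdown, and CD44 and HMMR (also called RHAMM) bind it. Versican, the product of VCAN, is a large chondroitin sulfate proteoglycan that binds hyaluronan and loosens the matrix around cells. In colorectal epithelium CD44 is widely known as a marker of progenitor-like cells.

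Of these genes, 4 had a probe set that differed by at least 1 log2 unit (2-fold) between 2 arrays, namely VCAN, CEMIP, HAS3 and CD44. Their promoters are shown because these are the genes the results turn on. The windows run from 250 bases before to 50 after the gene start and come from RefSeq on GRCh38.p14. All lie on the plus strand and are written 5′ to 3′, at chr5:83471494-83471793 for VCAN, chr15:80779120-80779419 for CEMIP, chr16:69107290-69107589 for HAS3 and chr11:35138921-35139220 for CD44. Capitals mark matches to the GC box GGGCGG and the TATA box TATAAA on either strand.
VCAN: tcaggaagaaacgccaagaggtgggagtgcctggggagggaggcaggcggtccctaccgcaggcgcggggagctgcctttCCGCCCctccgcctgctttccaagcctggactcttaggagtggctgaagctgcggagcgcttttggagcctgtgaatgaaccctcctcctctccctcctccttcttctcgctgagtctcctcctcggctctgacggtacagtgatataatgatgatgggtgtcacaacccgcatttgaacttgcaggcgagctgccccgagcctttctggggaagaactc
CEMIP: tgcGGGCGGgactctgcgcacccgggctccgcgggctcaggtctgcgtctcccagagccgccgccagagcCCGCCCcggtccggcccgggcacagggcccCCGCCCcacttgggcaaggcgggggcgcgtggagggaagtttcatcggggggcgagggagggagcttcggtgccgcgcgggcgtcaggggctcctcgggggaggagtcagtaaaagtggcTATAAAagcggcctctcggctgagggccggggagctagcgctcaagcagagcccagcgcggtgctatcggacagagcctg
HAS3: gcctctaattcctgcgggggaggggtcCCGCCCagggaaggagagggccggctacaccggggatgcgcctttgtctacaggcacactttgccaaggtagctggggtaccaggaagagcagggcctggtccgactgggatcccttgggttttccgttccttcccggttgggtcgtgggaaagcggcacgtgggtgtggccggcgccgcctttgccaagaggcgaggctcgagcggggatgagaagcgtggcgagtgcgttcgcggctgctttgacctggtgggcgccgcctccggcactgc
CD44: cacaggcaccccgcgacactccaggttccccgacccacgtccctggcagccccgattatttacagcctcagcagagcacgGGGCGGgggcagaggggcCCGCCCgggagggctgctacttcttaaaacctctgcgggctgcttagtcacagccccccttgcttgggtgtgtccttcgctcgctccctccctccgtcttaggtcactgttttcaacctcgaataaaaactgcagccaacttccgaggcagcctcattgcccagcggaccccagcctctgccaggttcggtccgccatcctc

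The CEMIP window held 3 GC boxes and a TATA box that begins at position -30 from the gene start. The CD44 window held 2 GC boxes, and the VCAN and HAS3 windows held 1 each. Of 35116 RefSeq promoter windows of the same length, 45.0% held a GC box and 11.5% a TATA box. Motifs for AP-1 (TGANTCA), ETS (CCGGAAG) and TCF (CTTTGAT), searched on both strands because ERK or Wnt signalling acts through such factors, were absent from all 4 windows. They occurred in 7.71%, 10.3% and 2.62% of all windows, in that order. No searched motif contains another, and the arrays did not measure factor binding at these windows.

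Array values were the deposited linear intensities, and differences are given on the scale log2(intensity + 16), which understates differences of dim probe sets. A probe set was called dim when its mean log2 value over the 4 arrays was under 6.08, the median of all probe sets. Of the 28 member probe sets, 23 were not dim, and they covered 7 genes. Medians of the 4 arrays lay between 50.7 and 52.0. KSR1 itself had intensities of 141 with hairpin #1 and 171 with hairpin #2, against 211 in shCTRL and 209 in untransfected cells, on its leading probe set, while its other 3 probe sets were dim. All 10 colorectal epithelial markers were measured and none was dim, and their summed intensity was 35231 with hairpin #1, 45430 with hairpin #2, 37770 in shCTRL and 37397 in untransfected cells. EPCAM lay between 7855 and 8119, while KRT20 had 52.5 and 275 with hairpins #1 and #2, 63.7 in shCTRL and 166 in untransfected cells. VIL1, at 56.0 to 62.6, and CEACAM5, at 50.5 to 59.1, lay close to the filter, which corresponds to an intensity of 51.7. In contrast, 0 of 11 leukocyte markers and 1 of 5 endothelial markers were above that level. The hairpin #2 array stood further from shCTRL than the hairpin #1 array did, with 1.66% of 27338 probe sets at least 1 log2 unit apart against 0.428%.

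**Figure D1:**
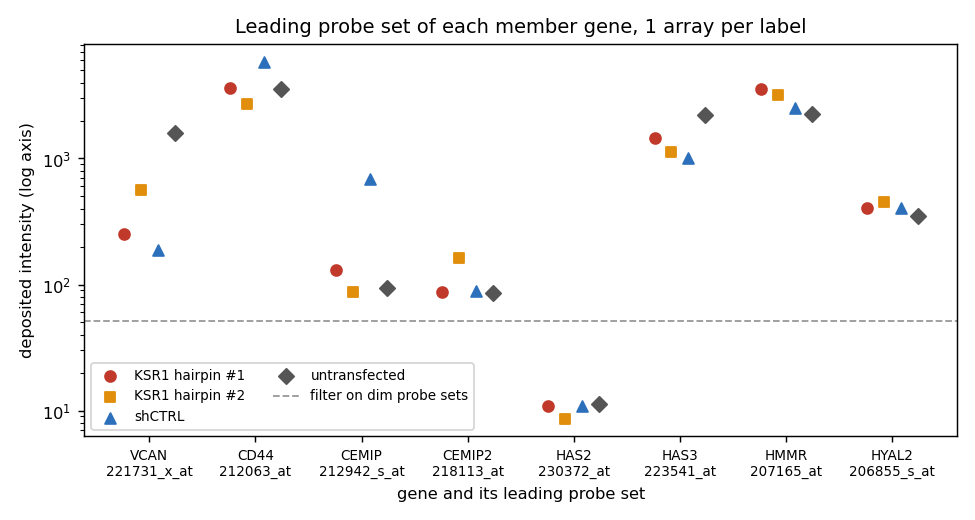
Deposited intensity (log axis) of the leading probe set of each of the 8 genes, the one with the highest mean over the 4 arrays. Each point is 1 array and the dashed line is the intensity that corresponds to the filter on dim probe sets. VCAN is highest in untransfected cells and CEMIP in shCTRL, and HAS2 lies under the line on all arrays. Heights of different genes cannot be compared.

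Versican transcript was lower in all 3 vector-carrying lines than in untransfected cells. On the leading VCAN probe set, 221731_x_at, the intensity was 253 with hairpin #1, 561 with hairpin #2 and 187 in shCTRL, against 1584 in untransfected cells. The untransfected array was far above the others, hairpin #2 came next, and hairpin #1 and shCTRL lay lowest. Relative to untransfected cells the log2 differences were -2.57 with hairpin #1, -1.47 with hairpin #2 and -2.98 in shCTRL. In plain intensities these are 6.27-fold, 2.82-fold and 8.48-fold lower levels. The shCTRL difference ranked 3 from the lowest of 27338 probe sets.

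The other VCAN probe sets gave the same order for the untransfected array. On 204620_s_at the intensities were 250 and 531 with hairpins #1 and #2, 176 in shCTRL and 1447 in untransfected cells. On 215646_s_at they were 80.8 and 177 with the hairpins, 54.8 in shCTRL and 503 in untransfected cells. These probe sets repeat the pattern of 221731_x_at, with the lowest value in shCTRL. On 204619_s_at the intensities were 74.5 and 99.4 with the hairpins, 38.0 in shCTRL and 306 in untransfected cells. On 211571_s_at they were 60.6 and 147 with the hairpins, 67.5 in shCTRL and 336 in untransfected cells, and here hairpin #1 rather than shCTRL was lowest. All 5 VCAN probe sets were at least 1 log2 unit lower in shCTRL than in untransfected cells, with differences from -2.98 to -2.07, where 0.355% of all 27338 probe sets were that much lower. All 5 were likewise lower than in untransfected cells with hairpin #1, with differences of -2.57 to -1.83 (background 0.439%), and with hairpin #2, with differences of -1.48 to -1.11 (background 0.951%). Probe sets of 1 gene share its transcripts and are not replicates of a condition.

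Against shCTRL the direction for VCAN was the opposite. With hairpin #2, 4 of 5 VCAN probe sets were at least 1 log2 unit higher than in shCTRL, with differences between 0.96 and 1.51 over the 5, where 0.797% of all probe sets were that much higher. With hairpin #1 the differences from shCTRL lay between -0.12 and 0.74, and none reached 1 log2 unit. Hairpin #2 exceeded hairpin #1 by 0.35 to 1.10, with 3 VCAN probe sets past 1 log2 unit (background 0.772%). Both hairpin arrays therefore lay between the 2 control arrays on 4 of the 5 probe sets, and their sign depended on which control was used. Summed intensity over 14 fibroblast markers, a cell type that expresses VCAN strongly, was 1093 and 1064 with hairpins #1 and #2, 1145 in shCTRL and 1165 in untransfected cells. Of these markers 6 were not dim. COL1A1, a fibrillar collagen, had 372 and 395 with the hairpins, 400 in shCTRL and 433 in untransfected cells, where it was highest, as VCAN was. THY1 was also highest there, at 59.4 against 58.8 in shCTRL. In contrast, DCN and FBLN1 were highest in shCTRL, at 62.3 and 190, and ACTA2 and VIM with hairpin #1, at 212 and 101. The dim COL1A2 and COL6A3 were highest in untransfected cells, at 51.1 and 29.3, while the dim COL3A1 was lowest there, at 15.7. VIM, the filament protein vimentin, had 101 and 59.0 with the hairpins, 49.4 in shCTRL and 72.7 in untransfected cells. The part of such markers in the VCAN values was not tested. In whole-culture RNA, fewer cells with a transcript and less transcript per cell cannot be told apart.

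**Figure D2:**
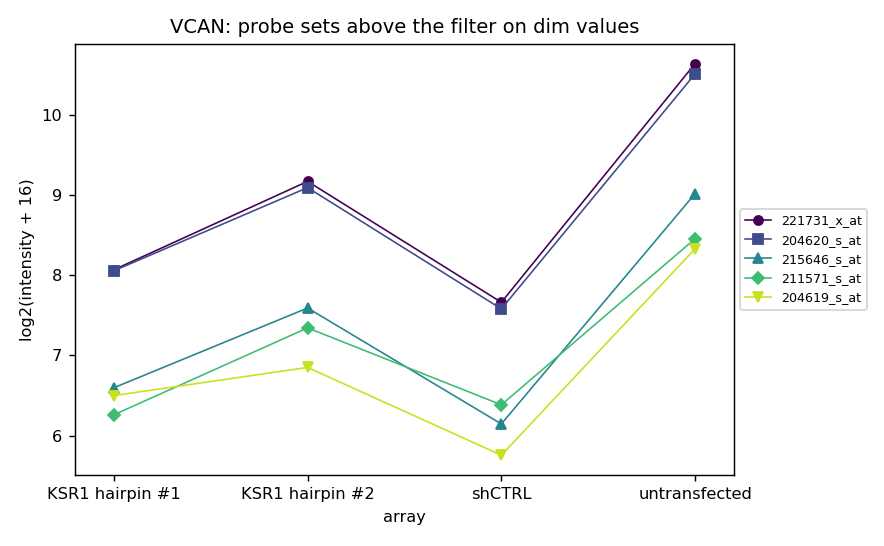
Values of log2(intensity + 16) for the 5 VCAN probe sets on the 4 arrays, each line joining the arrays of 1 probe set only to guide the eye. All 5 are highest in untransfected cells, and 4 of the 5 are lowest in shCTRL.

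The 5 genes that follow had profiles over the 4 arrays most like that of VCAN, by Euclidean distance between log2 values centred on each gene's mean, among the leading probe sets of 12468 genes. They were CPM (distance 1.03), TMEM158 (1.08), SAMD5 (1.08), AGPAT4 (1.11) and PAG1 (1.18), against a length of 2.31 for the VCAN profile itself. CPM, a membrane carboxypeptidase, had intensities of 45.3 and 47.5 with hairpins #1 and #2, 42.2 in shCTRL and 331 in untransfected cells. SAMD5 had 97.5 and 253 with the hairpins, 94.0 in shCTRL and 311 in untransfected cells. Both were highest in untransfected cells, and SAMD5 also had hairpin #2 well above hairpin #1 and shCTRL.

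The synthase genes differed in whether they could be measured. HAS3, which encodes a hyaluronan synthase of the plasma membrane, had intensities of 1466 with hairpin #1, 1116 with hairpin #2 and 1010 in shCTRL, against 2217 in untransfected cells, on 223541_at. The untransfected array was again the highest, and the other 3 were within 0.53 log2 units of each other. Differences from untransfected cells were -0.59 with hairpin #1, -0.98 with hairpin #2 and -1.12 in shCTRL. The other HAS3 probe set, 1552980_at, was dim, at 37.5 and 43.6 with the hairpins, 37.6 in shCTRL and 41.0 in untransfected cells. It did not show the shCTRL difference, and 1 further probe set carried HAS3 together with another symbol and was not used. HAS2, a second synthase, was dim on both of its probe sets, with intensities between 8.63 and 11.3 on 230372_at and between 6.54 and 7.29 on 206432_at, so no difference is given for it.

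Among the genes of hyaluronan breakdown, CEMIP was high in 1 line only. CEMIP, also known as KIAA1199 or HYBID, had intensities of 129 with hairpin #1, 87.9 with hairpin #2, 689 in shCTRL and 93.5 in untransfected cells on 212942_s_at. The shCTRL array stood apart, and the other 3 arrays lay between 87.9 and 129. shCTRL was 2.69 log2 units above untransfected cells, a 7.36-fold ratio of intensities that ranked 2 from the highest of 27338 probe sets. Relative to shCTRL the differences were -2.28 with hairpin #1 and -2.76 with hairpin #2, ranks 6 and 16 from the lowest. Relative to untransfected cells they were 0.41 and -0.08. CEMIP thus was the 1 member probe set at least 1 log2 unit lower with hairpin #1 than in shCTRL (background 0.322%), and 0 of 23 were that much higher (background 0.106%). Without the shCTRL array, no CEMIP difference reached 1 log2 unit.

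The second CEMIP probe set was dim and differed far less. On 1554685_a_at the intensities were 44.2 with hairpin #1, 49.7 with hairpin #2, 58.0 in shCTRL and 48.4 in untransfected cells. shCTRL was again the highest array, by 0.20 log2 units over untransfected cells. Its mean log2 value of 6.04 lay just under the filter at 6.08. The nearest member probe set above the filter was 216056_at of CD44, with a mean of 6.26.

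The genes with profiles most like that of CEMIP were MAMDC2 (distance 0.83), the noncoding VHRT (0.83) and LINC00326 (0.91), KIAA0040 (0.99) and CD24 (1.04), against a length of 2.26 for CEMIP. VHRT had intensities of 154 and 68.9 with hairpins #1 and #2, 1058 in shCTRL and 64.9 in untransfected cells. CD24, a surface glycoprotein, had 316 and 273 with the hairpins, 901 in shCTRL and 359 in untransfected cells. All 5 were highest in shCTRL.

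CEMIP2 and HYAL2 differed less. CEMIP2, which encodes a membrane protein formerly called TMEM2, had intensities of 87.8 with hairpin #1, 162 with hairpin #2, 88.7 in shCTRL and 85.8 in untransfected cells. Only hairpin #2 stood out, at 0.76 above shCTRL, 0.80 above untransfected cells and 0.78 above hairpin #1, and none of these reached 1 log2 unit. Of all 27338 probe sets, 2.75% differed more between the hairpin arrays. HYAL2, a hyaluronidase anchored at the cell surface, had intensities of 402 with hairpin #1, 453 with hairpin #2, 402 in shCTRL and 349 in untransfected cells. Its largest difference was 0.36, between hairpin #2 and untransfected cells. The hairpin #1 and shCTRL values of HYAL2 were identical in the deposited table, as was the case for 357 of 54675 probe sets in that pair of arrays.

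**Figure D3:**
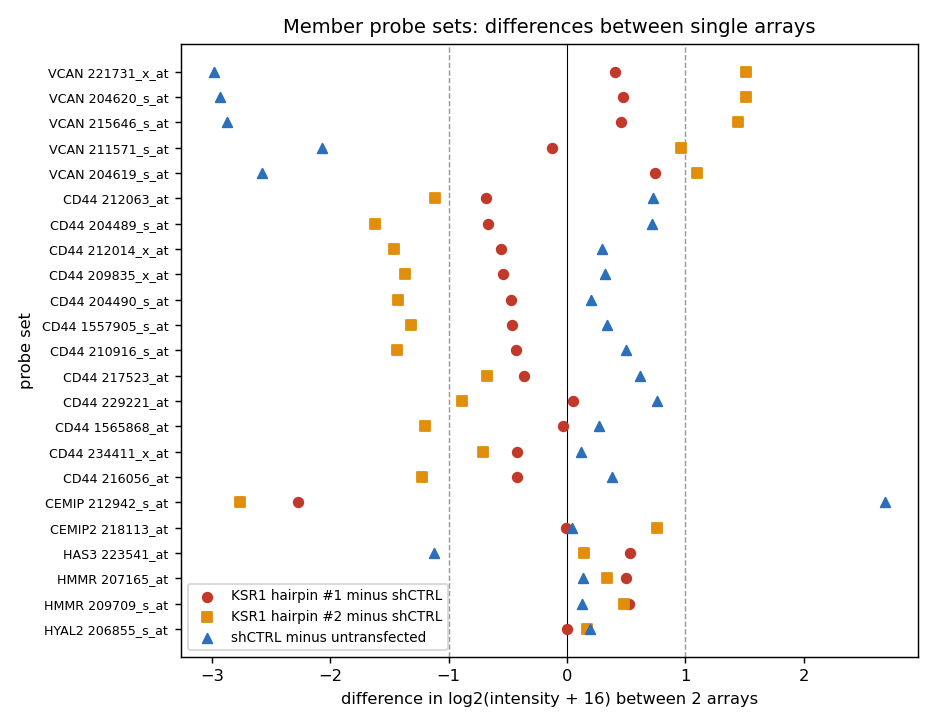
Differences in log2(intensity + 16) between single arrays for the 23 member probe sets that were not dim, with hairpin #1 minus shCTRL, hairpin #2 minus shCTRL and shCTRL minus untransfected. Dashed lines mark 1 log2 unit. All 3 differences share the shCTRL array. VCAN lies far to the left and CEMIP far to the right for shCTRL minus untransfected.

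CD44, the main cell-surface receptor for hyaluronan, was lowest with hairpin #2 and highest in shCTRL. On its leading probe set, 212063_at, the intensity was 3632 with hairpin #1, 2694 with hairpin #2, 5848 in shCTRL and 3539 in untransfected cells. Hairpin #1 and untransfected cells were almost level there. On 204489_s_at it was 2479 with hairpin #1, 1274 with hairpin #2, 3947 in shCTRL and 2400 in untransfected cells. On 204490_s_at it was 1622 with hairpin #1, 831 with hairpin #2, 2258 in shCTRL and 1957 in untransfected cells. Hairpin #2 was lowest on all 13 CD44 probe sets, including the dim 234418_x_at, and shCTRL was highest on 12 of them. The exception was 229221_at, with 419 for hairpin #1, 211 for hairpin #2, 405 for shCTRL and 233 for untransfected cells. Among all 27338 probe sets, 25.5% were lowest with hairpin #2, 22.9% were highest in shCTRL and 8.76% were both.

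Sizes were set out for the 12 CD44 probe sets that were not dim. Hairpin #2 was below shCTRL on all 12, with differences of -1.62 to -0.68 and a median of -1.27, and 9 passed 1 log2 unit, where 0.86% of all probe sets were that much lower. Hairpin #2 was also below untransfected cells on all 12, with differences of -1.22 to -0.06 and a median of -0.92, and 3 passed 1 log2 unit (background 0.951%). Hairpin #2 was below hairpin #1 on all 12, with differences of -1.16 to -0.29 and a median of -0.88, and 2 passed 1 log2 unit (background 0.666%). Over all 27338 probe sets the median difference in these comparisons lay between -0.0042 and 0.024.

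Hairpin #1 differed from the controls less and not in 1 direction. It was below shCTRL on 11 of 12 CD44 probe sets, with a median of -0.45 and a range of -0.68 to 0.05. Relative to untransfected cells 6 probe sets were higher and 6 lower, with a median of -0.0024 and a range of -0.30 to 0.80. shCTRL exceeded untransfected cells on all 12, by 0.12 to 0.76 with a median of 0.36, and none reached 1 log2 unit. Both hairpin arrays lay below both other arrays on 6 of the 12, by gaps of 0.04 to 0.30 log2 units, an order that 17.6% of all 27338 probe sets had.

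The sizes of the CD44 differences varied between probe sets. The difference of hairpin #2 from untransfected cells was -1.22 on 204490_s_at and -1.16 on 212014_x_at, but -0.13 on 229221_at and -0.06 on 217523_at. On 217523_at the intensities were 377 with hairpin #1, 301 with hairpin #2, 491 in shCTRL and 315 in untransfected cells. That probe set and 229221_at were also among those with a large shCTRL difference from untransfected cells, at 0.61 and 0.76, while 204490_s_at had 0.21. The pairing did not hold throughout, since 204489_s_at had 0.71 for shCTRL and -0.91 for hairpin #2. Both differences share the untransfected array. CD44 is a gene with many alternatively spliced exons, and which exons each probe set reads was not analysed here. Euclidean distances between centred profiles of CD44 probe sets ran from 0.075 to 0.89 over 66 pairs, with a median of 0.45. For VCAN they ran from 0.054 to 0.68 over 10 pairs, with a median of 0.57.

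**Figure D4:**
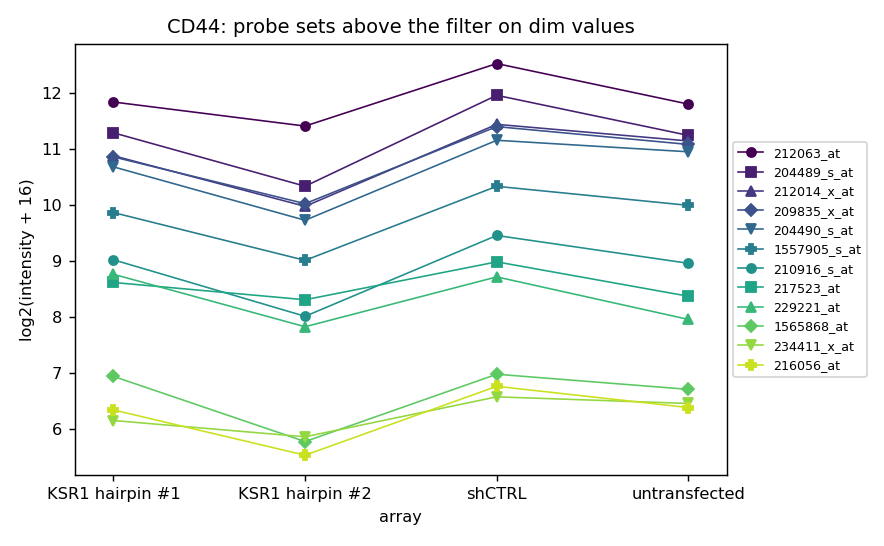
Values of log2(intensity + 16) for the 12 CD44 probe sets that were not dim on the 4 arrays, each line joining the arrays of 1 probe set only to guide the eye. All 12 are lowest with hairpin #2, and 11 of the 12 are highest in shCTRL.

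The genes with profiles most like that of CD44 on 212063_at were GSN (distance 0.10), RFTN1 (0.12), NHLRC3 (0.15), TNS3 (0.19) and ABLIM1 (0.20), against a length of 0.80 for CD44. GSN, the actin-severing protein gelsolin, had intensities of 545 and 376 with hairpins #1 and #2, 900 in shCTRL and 498 in untransfected cells. TNS3, a focal adhesion protein, had 205 and 172 with the hairpins, 334 in shCTRL and 193 in untransfected cells. Both had shCTRL highest and hairpin #2 lowest, as CD44 did.

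HMMR, a hyaluronan-binding protein of the mitotic spindle, was the only member gene above the filter that was higher in both hairpin arrays than in both others. On 207165_at the intensity was 3543 with hairpin #1 and 3161 with hairpin #2, against 2505 in shCTRL and 2275 in untransfected cells. On 209709_s_at it was 1381 with hairpin #1 and 1341 with hairpin #2, against 955 in shCTRL and 872 in untransfected cells. The pairs of arrays did not overlap on either probe set, and the gaps were 0.33 and 0.48 log2 units. Relative to shCTRL the differences were 0.50 and 0.52 with hairpin #1 and 0.33 and 0.48 with hairpin #2. shCTRL exceeded untransfected cells by 0.14 and 0.13. Of all 27338 probe sets, 22.8% had both hairpin arrays above both others and 17.6% below, so such an order is common on these arrays. Of the 23 member probe sets, 2 were above and 6 below, the 6 being those of CD44, and 0 were apart by 1 log2 unit (background 0.0439%).

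A list of 14 genes of mitosis and the spindle, here called the spindle list, was also examined. It holds partners of HMMR but also general mitotic genes such as TOP2A and CENPF, and all 14 were measured and none was dim. Both hairpin arrays lay above both others for 9 of 14 and below for 0, against 22.5% and 18.4% of the leading probe sets of 12468 genes. The gaps ran from 0.015 log2 units for TOP2A to 0.40 for CCNB1. Those of TTK, BUB1 and TPX2 were also small, at 0.054, 0.076 and 0.079. The median difference from shCTRL over the 14 was 0.16 with hairpin #1 and 0.30 with hairpin #2, where the medians over all genes were 0.0032 and 0.0076. Relative to untransfected cells the medians over the 14 were smaller, at 0.11 and 0.21, where those over all genes were 0.019 and 0.026. NUMA1 and BARD1 were below shCTRL with both hairpins. Their differences with hairpins #1 and #2 were -0.13 and -0.20 for NUMA1, and -0.06 and -0.10 for BARD1. CCNB1, a cyclin of mitotic entry, had 3600 and 4573 with hairpins #1 and #2, 2328 in shCTRL and 2718 in untransfected cells. PLK1, a mitotic kinase, had 831 and 1158 with the hairpins, 629 in shCTRL and 606 in untransfected cells. AURKA, the spindle kinase Aurora A, had 1613 and 2330 with the hairpins, 1197 in shCTRL and 1660 in untransfected cells, and BUB1, a checkpoint kinase, had 1435 and 1459, 1063 and 1360 in the same arrays. For AURKA the array pairs overlapped, since hairpin #1 and untransfected cells were level. The 5 genes with profiles most like HMMR were HIF1A (distance 0.06), LINC01806 (0.06), URB2 (0.09), CARS1 (0.09) and MRPL58 (0.09), against a length of 0.51 for HMMR, and none of them is on the spindle list.

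**Figure D5:**
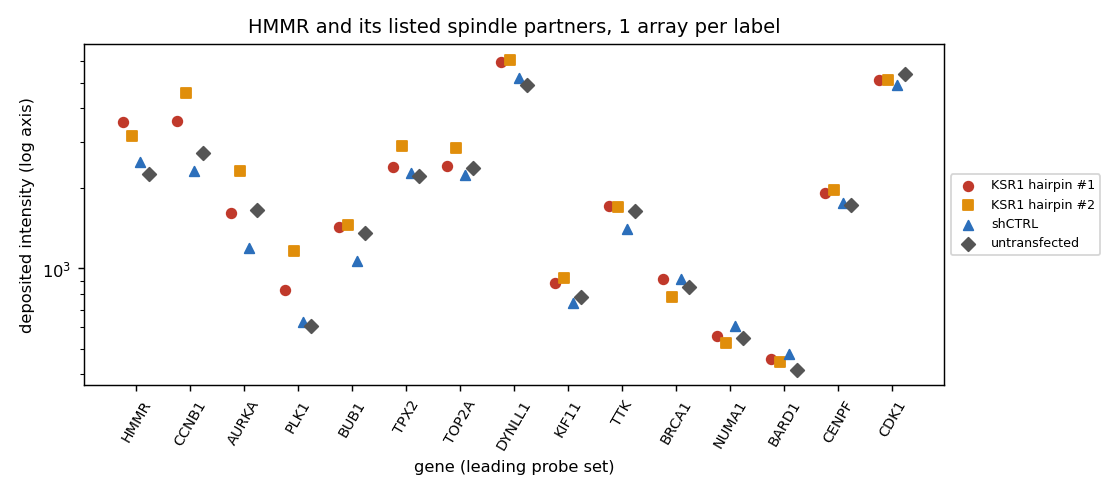
Deposited intensity (log axis) of HMMR and of 14 genes of the mitotic spindle list on the 4 arrays, 1 leading probe set per gene and 1 array per point. For HMMR, CCNB1 and PLK1 both hairpin arrays lie above both others, while for AURKA hairpin #1 is level with untransfected cells.

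Other genes of hyaluronan, versican and CD44 biology were taken from 6 further lists. Between hairpin #2 and untransfected cells ANK3 and MSN differed by at least 1 log2 unit, as did 2.28% of all 12468 genes. No gene of these lists did so in the other 5 comparisons of single arrays, where few genes did in all. Over all genes, 0.545% differed that much with hairpin #1 and 1.9% with hairpin #2 relative to shCTRL, 0.754% with hairpin #1 and 0.85% in shCTRL relative to untransfected cells, and 1.72% between the hairpins. Of 8 genes listed for hyaluronan synthesis and its sugar precursors, 5 were measured, none was dim, and both hairpin arrays lay above both others for 3 and below for 0 (22.5% and 18.4% of 12468 genes). UGDH, which makes the UDP-glucuronic acid that synthases use, had 958 and 999.9 with hairpins #1 and #2, 766 in shCTRL and 842 in untransfected cells. GFPT1, the entry enzyme of the hexosamine pathway, had 717 and 785 with the hairpins, 666 in shCTRL and 591 in untransfected cells. UAP1 and GNPNAT1, further enzymes of that pathway, ranged over 0.19 and 0.15 log2 units.

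Many genes that bind or take up hyaluronan outside the cell were dim in HCT116, as were 7307 of all 19775 genes. Of 8 genes of other breakdown and uptake, 6 were dim, and HYAL3 and STAB1 ranged over 0.43 and 0.14 log2 units. Of 17 link and binding proteins 12 were dim, and for 3 of the remaining 5 both hairpin arrays lay below both others and for 0 above (18.4% and 22.5% of 12468 genes). Those 3 gaps were very small, at -0.049 for ACAN, -0.022 for HAPLN3 and -0.0031 log2 units for BCAN. The named members of that list, ACAN, HABP4, ITIH4 and BCAN, had ranges between 0.19 and 0.37. Of 7 genes for versican cleavage, 5 were dim, and TIMP3, a metalloproteinase inhibitor, had 133 and 180 with hairpins #1 and #2, 169 in shCTRL and 190 in untransfected cells, while ADAMTS4 ranged over 0.23 log2 units.

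Versican carries chondroitin sulfate chains, and 21 genes of their synthesis were listed. All were measured and 19 were not dim, of which 3 had both hairpin arrays above both others and 0 below, where 22.5% and 18.4% of 12468 genes did. CHSY3, a chondroitin synthase, had 89.7 and 37.6 with hairpins #1 and #2, 71.5 in shCTRL and 67.3 in untransfected cells. B3GALT6, a linker-region galactosyltransferase, had 527 and 962 with the hairpins, 714 in shCTRL and 638 in untransfected cells. For both, the hairpin arrays lay on opposite sides of the controls. CHPF, a polymerizing factor, had 551 and 443 with the hairpins, 559 in shCTRL and 329 in untransfected cells, so untransfected cells were lowest, and XYLT1 ranged over 0.74 log2 units.

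Partners of CD44 were listed as sheddases, cytoskeletal linkers and splicing factors. Of 15 listed, 13 were measured and 11 were not dim, of which 2 had both hairpin arrays above both others and 1 below, where 22.5% and 18.4% of 12468 genes did. MSN, the linker moesin, had 1292 and 752 with hairpins #1 and #2, 1195 in shCTRL and 1624 in untransfected cells. ANK3, which encodes an ankyrin, had 128 and 208 with the hairpins, 168 in shCTRL and 78.7 in untransfected cells. ADAM10, a protease that sheds CD44, had 2480 and 4169 with the hairpins, 2664 in shCTRL and 2566 in untransfected cells. EZR, the linker ezrin, had 6405 and 8175 with the hairpins, 5672 in shCTRL and 6111 in untransfected cells. Of these named genes, moesin was lowest with hairpin #2, the line in which CD44 was lowest, and ANK3, ADAM10 and ezrin were highest there. Other genes of the list went either way. RDX was lowest with hairpin #2, at 2188, and ADAM17 was highest, at 801. Of all 27338 probe sets, 25.5% were lowest with hairpin #2. The share that was highest there is not given here, and a link between these orders was not tested.

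Over the 23 member probe sets that were not dim, 4 were at least 1 log2 unit higher and 10 lower with hairpin #2 than in shCTRL (background 0.797% and 0.86%). With hairpin #2 against untransfected cells 0 were higher and 8 lower (background 0.988% and 0.951%). With hairpin #1 against untransfected cells 0 were higher and 5 lower (background 0.278% and 0.439%). In shCTRL against untransfected cells 1 was higher and 6 were lower (background 0.351% and 0.355%). With hairpin #2 against hairpin #1, 3 were higher and 2 lower (background 0.772% and 0.666%). VCAN and CD44 supply 17 of the 23 probe sets, so these counts rest mainly on those genes. Each label had 1 array, so the spread between cultures of 1 kind is unknown.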

How the data were processed

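Total RNA from 4 samples of HCT116 cells was labelled with biotin and hybridised, per the labels' protocols, 1 array per label. The authors deposited 1 intensity per probe set on a linear scale. How background correction, summary and normalization were done is not given in these labels. The values were used as deposited, as log2(intensity + 16), and 0 columns were left unused. On arrays no read depth applies, and their number limits the precision. Gene names came from the platform's annotation table, in which 41097 probe sets had 1 symbol, and 41043 of these matched RefSeq genes of GRCh38.p14.

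Single arrays were compared in 6 pairs by a size rule of 1 log2 unit, with no p-value, because each label has 1 array and the members were picked with results known. The code of the size rule was tested on simulated data with known changes, which gives no error rate for these arrays. Members, the 7 gene lists (90 genes) and marker lists were chosen with earlier results of these data known. Named genes were all members, KSR1, up to 4 genes per list with the widest range among those not dim, and the 5 nearest profiles to VCAN, CEMIP, CD44 and HMMR. Alternatives changed the pseudocount, scaling, filter, probe sets and arrays. Python 3.11.15 with pandas 2.3.3 and numpy 2.4.6 was used.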

Additional observations from a re-analysis of the deposited data

Results flagged for a closer look

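On 3 of the 23 member probe sets that were not dim, the hairpin arrays lay on opposite sides of shCTRL, and none of these differences between hairpins was tested. For VCAN 211571_s_at, hairpin #1 minus shCTRL was -0.12 and hairpin #2 minus shCTRL was 0.96. For CEMIP2 218113_at the same differences were -0.013 and 0.76. For CD44 229221_at they were 0.047 and -0.89. In each the hairpin #1 difference was small.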

How the results depend on the processing

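Counts of member probe sets past 1 log2 unit stayed within 1.5 times their value after quantile normalization, median centring, a pseudocount of 1 and no filter on dim probe sets. With a pseudocount of 64 the count between the hairpins was 0 in place of 5, and the others stayed within 1.5 times. With the filter at the 75th percentile, which left 15 of 23 probe sets, the counts were 3 for shCTRL against untransfected cells, 0 and 9 for hairpins #1 and #2 against shCTRL, 2 and 5 for these hairpins against untransfected cells, and 3 between the hairpins. Leaving out probe sets named _x_at or _s_at removed every VCAN probe set and the CEMIP probe set that differed, and left 8. The counts were then 1, 0, 3, 0, 0 and 1 in the same order, and 2 for hairpin arrays beyond both others. That last count, 8 in all, was 19 without untransfected cells, 16 without shCTRL, 10 without hairpin #2 and 17 without hairpin #1, and for gaps of 1 log2 unit it was 1, 5, 0 and 3 in the same order, against 0 with all arrays. The 5 were VCAN probe sets set against untransfected cells alone. By gene, 240 differences were recomputed. They include those of the dim HAS2 and of genes such as HYAL2, which lay far under 1 log2 unit and had little room to cross it. Of the 240, 236 stayed on their side of 1 log2 unit. The others were HAS3 in shCTRL minus untransfected cells, at -0.61 as a mean over probe sets, HAS3 with hairpin #2 minus untransfected cells, at -1.01 after quantile normalization, and VCAN between the hairpins, at 0.91 as a mean over probe sets and 0.98 with a pseudocount of 64. No paired analysis was possible because each label had 1 array.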
